A study of Sus scrofa with 48 samples.

Results

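*OAZ3*, the antizyme gene best known from male germ cells, was followed in pig subcutaneous adipose tissue (SCAT) together with the genes that make, break down and control the polyamines. The members were 10 genes. They were *ODC1*, *AMD1*, *SRM* and *SMS* for synthesis, *SAT1* and *SMOX* for breakdown, *OAZ1*, *OAZ2* and *OAZ3* for the antizymes, and *AZIN1* for the antizyme inhibitor. Every non-control probe that carried 1 of these gene names, or whose target accession belonged to 1 of these genes, was taken if at least 9 of 12 arrays in some group showed it well above background. There were 41 such probes of the 60305 on the array, and all passed. The least bright of them, the *SMS* probe O9162, was well above background on at most 11 of 12 arrays of a group, so no member lay just outside the limit. The set was selected on *OAZ3*, which had been picked for its low level in low RFI pigs. The difference in *OAZ3* between lines is therefore given as a description, with no test.

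Each of the 48 arrays held the SCAT RNA of a different growing pig. The pigs were Large White barrows (castrated males) of 2 lines bred in opposite directions on residual feed intake (RFI). This is the feed eaten beyond or below that predicted from growth, with low RFI the more efficient line. They ate freely either a feed rich in fat and fiber (HF diet) or a feed poor in fat and fiber and rich in starch (LF diet), and the labels give an age of 132 days. Each line was fed each diet, which gave 4 groups of 12 pigs. Because diet differs in fat, fiber and starch at once, these cannot be told apart. The authors report that HF pigs also ate less, weighed less and carried less fat, so a diet difference covers these as well. A line difference covers whatever else had become different between the 2 breeding lines.

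Polyamines are small positively charged molecules, putrescine, spermidine and spermine, that bind nucleic acids and are needed for growth and translation. *ODC1* (ornithine decarboxylase) makes putrescine from ornithine. *AMD1* makes decarboxylated S-adenosylmethionine, the donor from which *SRM* (spermidine synthase) and *SMS* (spermine synthase) build the longer polyamines. *SAT1* acetylates spermidine and spermine for export or oxidation, and *SMOX* oxidizes spermine. In adipose tissue the cycle of synthesis and acetylation uses acetyl-CoA and is known to bear on fat storage. Antizymes bind the ODC1 protein, and the product of *OAZ1* leads it to the proteasome. Translation of antizymes needs a frameshift that polyamines promote. *AZIN1* resembles ODC1 without its activity and frees it from antizyme. *OAZ1* and *OAZ2* are broadly expressed, whereas *OAZ3* is known from spermatids. Most of this control acts on protein, which the arrays did not measure.

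The probes were 60-base sequences printed on the array, and those of *OAZ3* are shown first because the line description rests on them. The *OAZ3* probe O3277 and the *OAZ3* probe A_72_P437459 hold the same 60 bases, so that this sequence was measured at 2 spots on every array. It is set beside the *OAZ2* probe A_72_P441873, with capitals marking the 22 of 41 aligned bases (53.7%) that were equal in the best alignment without gaps. The other *OAZ3* probe, A_72_P619999, covers different bases of the same transcript and is given in lower case throughout.
OAZ3 O3277: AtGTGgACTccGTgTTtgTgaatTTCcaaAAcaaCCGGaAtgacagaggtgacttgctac
OAZ2 A_72_P441873: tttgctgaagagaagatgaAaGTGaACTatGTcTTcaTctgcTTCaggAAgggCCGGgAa
OAZ3 A_72_P619999: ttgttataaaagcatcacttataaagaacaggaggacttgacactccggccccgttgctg
No other of the 60306 non-control spots shared a run of 16 bases with either *OAZ3* sequence on either strand, apart from the repeat of the first sequence itself.

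*OAZ3* was readable in SCAT of every pig. All 3 probes were well above background on 48 of 48 arrays, with processed signals between 133 and 1799 for O3277, between 126 and 1706 for A_72_P437459, and between 72.8 and 482 for A_72_P619999. Levels below are log2 of this signal minus the median of the array, so that 0 is the level of the median probe, and probes are compared across pigs but not with each other.

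In the HF low RFI group, O3277 ranged from -1.14 to 1.41 with a median of -0.62. In the LF low RFI group it ranged from -1.04 to 1.64 with a median of -0.59. In the HF high RFI group it ranged from -0.82 to 2.09 with a median of 1.61. In the LF high RFI group it ranged from -0.76 to 2.26 with a median of 1.24. The lines overlapped between -0.82 and 1.64, while the medians of both low RFI groups lay far below those of both high RFI groups. The mean level of O3277 was -0.08 ± 0.96 (SD, n = 24) in low RFI and 1.23 ± 0.87 (SD, n = 24) in high RFI pigs, which is 2.48-fold higher in high RFI. The difference, low minus high RFI, was -1.31 for O3277, -1.34 for its repeat A_72_P437459 and -0.88 for A_72_P619999 on the log2 scale. For O3277 it came to -1.51 among HF pigs and to -1.11 among LF pigs. In these bulk samples, fewer cells of a type and less RNA per cell cannot be told apart.

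Within each line the pigs were not spread evenly but fell into 2 separate runs of *OAZ3* level. For A_72_P437459 no pig lay between -0.24 and 0.75, a gap of 0.996 log2 units, and the next widest gap among the 48 levels was 0.34. For O3277, with the same bases, the empty stretch from 0.03 to 0.69 was only a little wider than the next one, at 0.66 against 0.54, because 1 pig of the lower run stood apart from the others. For A_72_P619999 it ran from -1.48 to -0.98, a gap of 0.51 against a next widest of 0.17. The same 19 pigs lay below the gap on all 3 probes. They were 8 of 12 HF low RFI pigs, 8 of 12 LF low RFI pigs, 1 of 12 HF high RFI pigs and 2 of 12 LF high RFI pigs. Low RFI pigs thus made up 16 of the 19 pigs in the lower run and 8 of the 29 in the upper run.

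Both lines had pigs in both runs, and in the upper run the low RFI pigs had the lower median on all 3 probes. On A_72_P437459 the 16 low RFI pigs of the lower run lay between -1.22 and -0.24 with a median of -0.68, and the 3 high RFI pigs there lay between -1.08 and -0.74 with a median of -0.82. In the upper run, the 8 low RFI pigs lay between 0.85 and 1.56 with a median of 1.25, and the 21 high RFI pigs between 0.75 and 2.22 with a median of 1.68. The upper run medians of low and high RFI pigs were 1.19 and 1.54 for O3277 and -0.46 and -0.10 for A_72_P619999. On A_72_P437459, levels above 1.56 were seen in high RFI pigs and in no low RFI pig. Among the 44202 kept probes with no missing value, 120 had a gap at least as wide as that of A_72_P437459 with 5 or more pigs on either side. The number was 246 for the gap of O3277 and 413 for that of A_72_P619999, and the median gap measured so was 0.09.

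**Figure D1:**
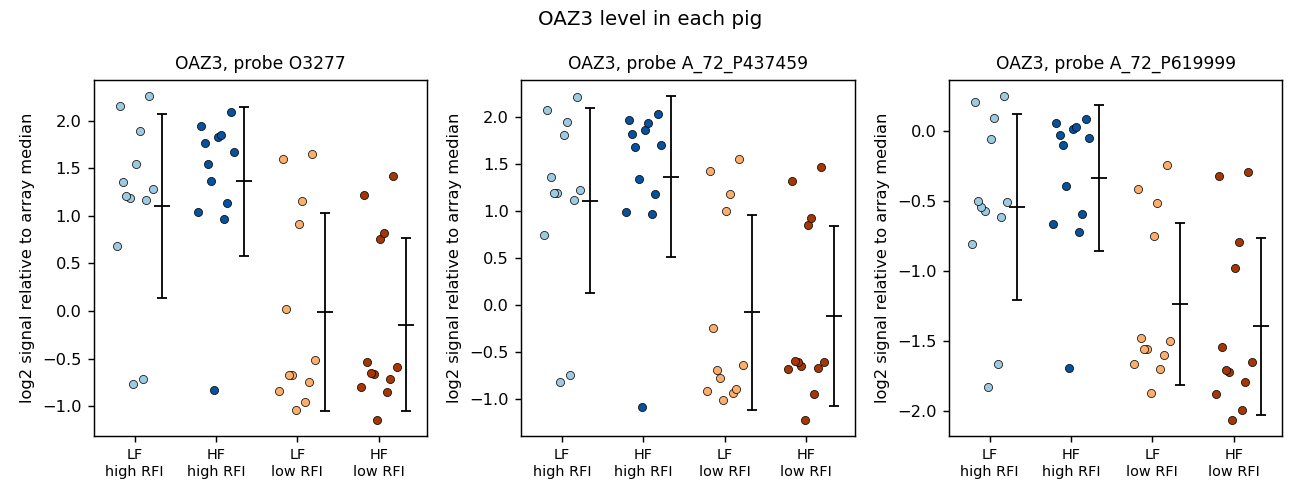
Level of OAZ3 in each of the 48 pigs for the 3 probes, as log2 signal relative to the array median (y axis), by diet and line (x axis). Each point is 1 pig, and the bar beside the points is the mean ± SD of the 12 pigs. Every group is split by an empty stretch, with 8 of 12 pigs below it in each low RFI group and 1 or 2 of 12 in the high RFI groups.

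Repeat spots of 1 sequence differed little. After centring, O3277 and A_72_P437459 differed by a median of 0.08 and by at most 0.28 log2 units over the 48 arrays, well under the gap. The plot of the probes against each other shows the same 2 clouds for the second sequence.

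**Figure D2:**
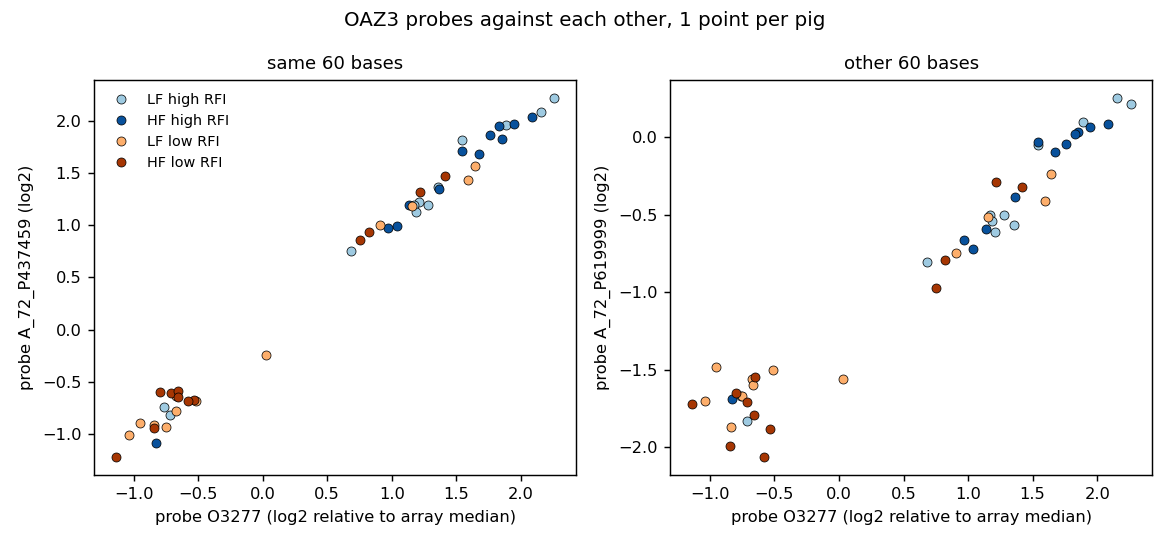
Levels of the 3 OAZ3 probes in 48 pigs, 1 point per pig, with O3277 on the x axis of both panels (log2 relative to the array median). The left panel sets it against the probe with the same 60 bases and the right panel against the probe with other bases, and in both the 19 lower pigs lie apart from the 29 upper ones.

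The arrays lay on 6 slides scanned on 2 dates, with 2 pigs of each group on every slide. Low RFI pigs had the lower mean of O3277 on each of the 6 slides, by between -0.49 and -2.15. *OAZ3* was picked on this difference over the same arrays, so the shared sign adds no independent support. The difference was -1.80 over the 3 slides of the first scan date and -0.82 over those of the second. All 3 high RFI pigs of the lower run were scanned on the second date, and the low RFI pigs of that run were 9 on the first and 7 on the second. Why the scan dates differed was not tested.

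Diet did not detectably move *OAZ3*, a contrast that had no part in its choice. The HF minus LF difference was 0.06 ± 0.26 (SE, n = 24 per diet) for O3277, with a 95% interval from -0.45 to 0.58 and an adjusted p of 0.910 by limma with Benjamini-Hochberg adjustment. For A_72_P437459 the difference was 0.11 ± 0.27 (SE) and for A_72_P619999 0.03 ± 0.17 (SE), with limma adjusted p of 0.841 and 0.948. Over the 3 probes the difference lay between -0.20 and -0.16 on the first scan date and between 0.25 and 0.38 on the second, so that it had no stable sign. It was also below 0 on all 3 probes with array weights, and was -0.51 for O3277 with background outlier flags set to missing. The diet effect did not differ detectably between lines either. For O3277 the interaction was -0.39 with an interval from -1.43 to 0.64 (limma, unadjusted p = 0.447).

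The germ cell markers were looked up because *OAZ3* is known from the testis. Of 8 such genes, 7 had a probe and 4 had a probe that passed the filter. The 4 that passed, *DDX4*, *PRM1*, *TNP2* and *PRM2*, were well above background on 48, 47, 46 and 30 of 48 arrays. *TNP1*, *ODF1* and *AKAP4*, which did not pass, were well above background on 2, 0 and 1 of 48 arrays. The summed signal of the 4 that passed was between 0.32 and 0.69 times that of the median probe over all 4 groups. None of the 4 was called by diet or by line. Over all probes tested 7.44% were called lower and 5.61% higher by diet, and 1.37% by line. All 7 adipocyte markers, among them *ADIPOQ*, *PLIN1* and *FABP4*, were well above background on 48 of 48 arrays. That does not by itself mark the tissue as adipose. *MYH7* of skeletal muscle, *HBB* of blood and *PECAM1* of endothelium were also above background on all 48.

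*MRPL9*, a mitochondrial ribosomal protein gene, lies next to *OAZ3* in the RefSeq annotation of pig assembly Sscrofa11.1. Its 2 probes differed between lines in the other direction. They were higher in low RFI pigs by 0.26 ± 0.06 (SE) for O9386 and by 0.25 ± 0.05 (SE) for A_72_P406268, with limma adjusted p of 0.0137 and 0.00867. Within the lower run their r with O3277 was 0.45 and 0.52, and within the upper run -0.23 and -0.20. *TDRKH*, the nearest gene on the other side, had 2 probes that did not pass the filter, and the next genes out, *LINGO4* and *LOC110260325*, had no probe under those names. *MRPL9* and *OAZ3* overlap at their ends in that annotation. The build behind the array design is not given in the sources used here, so no coordinates are given.

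The genes whose pig-to-pig pattern was most like *OAZ3*, by Pearson's r with O3277 over 48 arrays after group means were removed, were *PGLYRP4* (0.55), *BACE1* (0.54), *ITGAV* (0.53), *RNF187* (0.53) and *XPNPEP1* (0.53). The most opposite were *P2RY6* (-0.60), *UBXN11* (-0.58), *FNBP1* (-0.58), *CHADL* (-0.56) and *BRD1* (-0.55). These are the extremes of 10143 symbols, each through its brightest probe, with a median r of -0.00194, and they carry the split into 2 runs. Other probes of some of these genes did not follow *OAZ3*, with r from -0.02 to 0.54 over the 2 probes of *BACE1*, from 0.00 to 0.53 over the 6 of *ITGAV* and from -0.56 to -0.22 over the 2 of *CHADL*. Taken within the runs, the r of *PGLYRP4* was -0.31 over the 19 lower and 0.37 over the 29 upper pigs, and that of *FNBP1* was -0.59 and -0.42. *PGLYRP4*, a peptidoglycan recognition protein gene, was also the only 1 of the 10 called by line, at -0.81 ± 0.19 (SE) in low minus high RFI (limma adjusted p = 0.0190).

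No relation of *OAZ3* with another member from pig to pig passed the correction for multiple tests. Because of the 2 runs, the relation with the brightest probe of each of the other 9 genes was computed within each run, which gave 18 pairs. Pearson's r lay between -0.30 and 0.46 and Spearman's rho between -0.31 and 0.44, and the smallest adjusted p over the 18 pairs was 0.434 for r and 0.305 for rho (two-sided permutation tests). The raw p was below 0.05 in 2 of them. Without the 2 pigs farthest from the median of *OAZ3* in each run, r lay between -0.32 and 0.28. With the means of the slides removed it lay between -0.46 and 0.37. The same 18 pairs within each line, where the 2 runs are mixed, gave no adjusted p below 0.224.

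Among the other members nearly all calls were by diet. Of the 41 probes, 16 were called lower and 2 higher under the HF diet, from 6 of the 10 genes. A probe was called at an unadjusted p below 0.01, a fold change above 1.1 and an adjusted p below 0.08 in limma. Over all 44356 probes tested, 7.44% were called lower and 5.61% higher by the same rule. The median HF minus LF difference was -0.16 over the 41 probes and -0.02 over all probes tested. Probes of 1 gene share their transcript, and some share their sequence, so that 41 probes are not 41 independent readings.

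**Figure D3:**
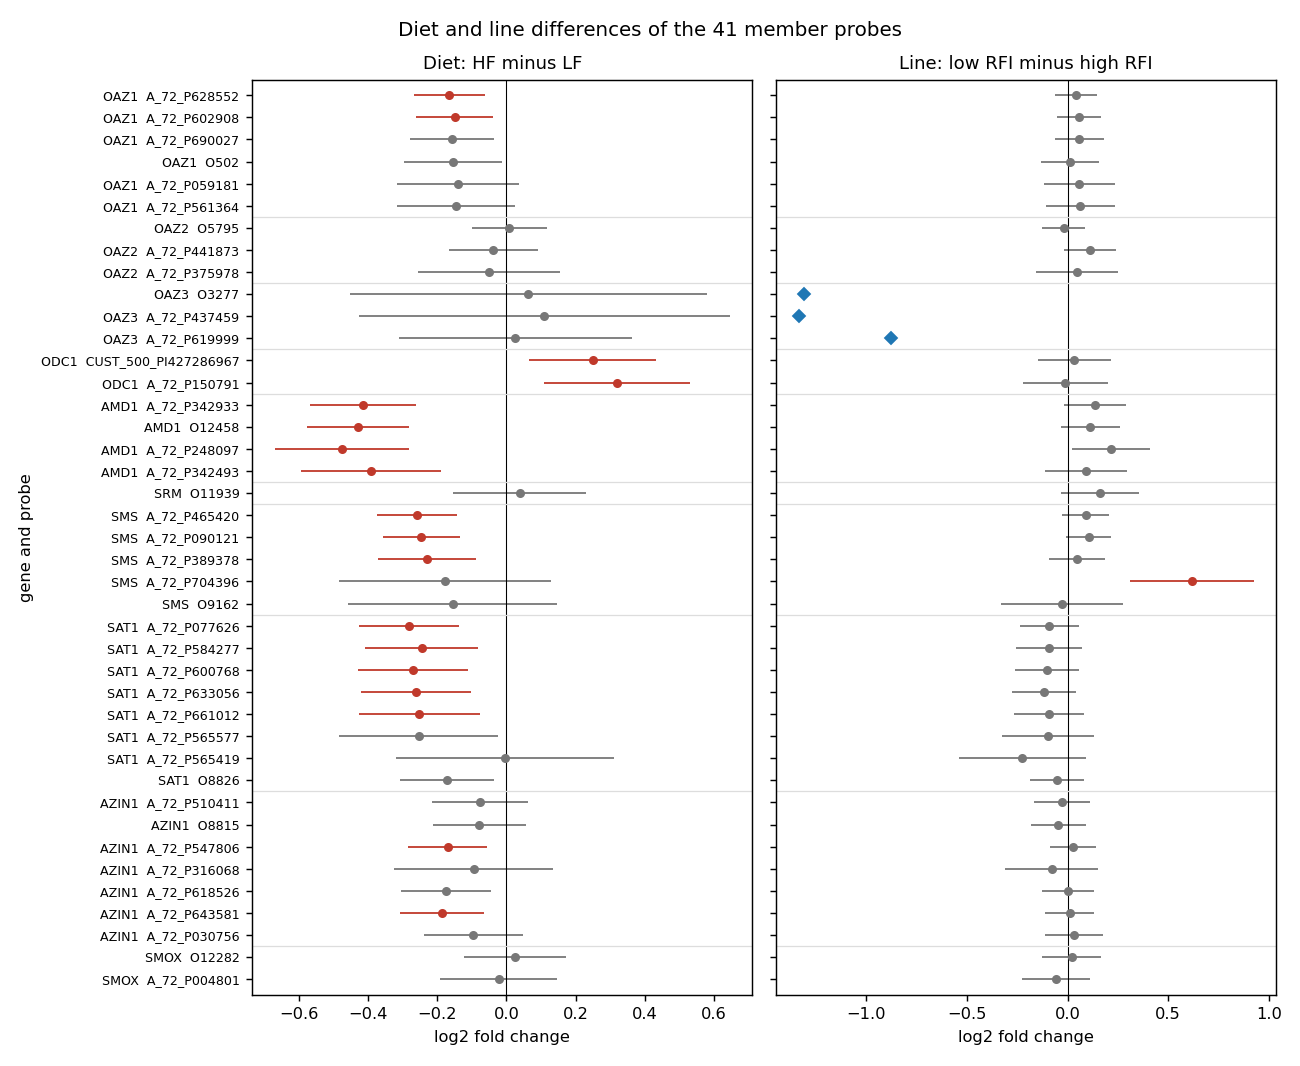
Log2 fold change of the 41 member probes (rows, by gene) for HF minus LF diet (left) and low minus high RFI (right), with 95% intervals from limma (x axes, log2). Red marks the probes called, grey those not called, and blue diamonds the OAZ3 line differences, shown without interval because OAZ3 was selected on them. The 4 AMD1 probes lie farthest to the left under diet, from -0.39 to -0.48, and the 2 ODC1 probes lie to the right.

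*AMD1* fell the most under the HF diet, on all 4 of its probes, by 0.39 to 0.48 on the log2 scale (limma adjusted p from 0.000138 to 0.00797). The brightest, A_72_P342933, ranged from 2.90 to 3.59 with a median of 3.34 in LF low RFI pigs and from 2.49 to 3.42 with a median of 3.03 in LF high RFI pigs. Under the HF diet it ranged from 2.30 to 3.20 with a median of 2.79 in low RFI and from 2.16 to 3.14 with a median of 2.74 in high RFI pigs. The diets overlapped, yet 23 of 24 LF pigs lay above the HF mean and 1 of 24 HF pigs lay above the LF mean. The level was 1.33-fold lower in HF, with a 95% interval of the log2 difference from -0.57 to -0.26. In low RFI pigs alone the difference was -0.53, and in high RFI pigs -0.29, with an interaction of -0.24 that had an interval from -0.55 to 0.07. The difference held its sign within both scan dates, at -0.28 and -0.55, with limma adjusted p of 0.134 on the first and 0.0176 on the second.

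*ODC1* went up under the HF diet, on both of its probes. The brighter of them was 0.25 ± 0.09 (SE) higher, and the other, A_72_P150791, was 0.32 ± 0.10 (SE) higher, with limma adjusted p of 0.0667 and 0.0385. The second probe is shown because *ODC1* was called in the direction opposite to *AMD1* and *SMS*.
ODC1 A_72_P150791: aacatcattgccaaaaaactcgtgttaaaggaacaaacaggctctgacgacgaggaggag
On this probe the HF pigs ranged from -1.44 to -0.22 with a median of -0.61 in low RFI and from -1.23 to 0.13 with a median of -0.70 in high RFI. The LF pigs ranged from -1.49 to -0.29 with a median of -0.98 in low RFI and from -1.76 to -0.52 with a median of -1.02 in high RFI. The groups overlapped widely, with 20 of 24 HF pigs above the LF mean and 6 of 24 LF pigs above the HF mean. The brighter probe was just inside the limit and was not called under 8 of the 18 alternatives. Within the 2 scan dates the difference of A_72_P150791 was 0.30 and 0.33, not called in either, and neither *ODC1* probe was called when dim probes were not filtered out.

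*SMS*, which makes spermine, fell on its 3 bright probes by 0.23 to 0.26 under the HF diet. On A_72_P465420 the LF pigs had a mean of 3.56 ± 0.18 (SD, n = 24) and the HF pigs one of 3.30 ± 0.22 (SD, n = 24), a difference of -0.26 ± 0.06 (SE, limma adjusted p = 0.00214). In that probe 22 of 24 LF pigs lay above the HF mean. A_72_P090121 holds the same 60 bases and gave -0.25. All 3 bright probes were called on the first scan date alone and none on the second, with A_72_P465420 at -0.31 on the first and -0.21 on the second. The other 2 *SMS* probes, A_72_P704396 and O9162, were dim, at -0.18 and -0.16, and were not called by diet. *SRM*, the enzyme one step before, had 1 probe, at 0.04 ± 0.10 (SE) with an interval from -0.15 to 0.23.

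*SAT1*, the acetylase that starts breakdown, was lower under the HF diet on 5 of 8 probes, by 0.25 to 0.28. The number called was 3 under quantile normalization, 3 on the first scan date alone and 0 on the second. On the brightest, A_72_P077626, LF low RFI pigs ranged from 5.33 to 5.72 with a median of 5.52, and LF high RFI pigs from 5.05 to 6.09 with a median of 5.67. HF low RFI pigs ranged from 4.87 to 5.44 with a median of 5.30, and HF high RFI pigs from 4.75 to 5.75 with a median of 5.39. In the low RFI line the diets hardly overlapped, whereas in the high RFI line they did so over most of the range. The difference was -0.28 ± 0.07 (SE), 1.22-fold lower in HF, with 21 of 24 LF pigs above the HF mean (limma adjusted p = 0.00748). The interaction was -0.04 with an interval from -0.33 to 0.25, so a different response of the lines was not detected.

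Some of the *SAT1* probes share sequence. The 4 probes below, all of them called, overlap on the transcript, and capitals mark the 35 bases common to all of them.
SAT1 A_72_P584277: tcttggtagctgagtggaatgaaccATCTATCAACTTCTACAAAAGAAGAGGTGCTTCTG
SAT1 A_72_P661012: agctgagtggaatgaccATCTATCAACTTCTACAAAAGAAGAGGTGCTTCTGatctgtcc
SAT1 A_72_P633056: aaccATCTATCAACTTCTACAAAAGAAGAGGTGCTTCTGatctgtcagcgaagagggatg
SAT1 A_72_P600768: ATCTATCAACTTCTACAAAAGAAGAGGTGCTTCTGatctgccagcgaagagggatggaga
They gave differences from -0.25 to -0.27 and are not independent of each other, beside the separate sequence of A_72_P077626. The remaining 3 probes were not called. A_72_P565577 was at -0.25 and O8826 at -0.17, of which O8826 was called with slide as a random block (limma adjusted p = 0.0373), while A_72_P565419 was at -0.00437 with an interval from -0.32 to 0.31. O8826 did not follow the other 7 *SAT1* probes over the 48 arrays, with r between -0.42 and 0.10 as a description. *SMOX*, which oxidizes spermine without prior acetylation, had 2 probes at 0.02 and -0.02, neither called.

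**Figure D4:**
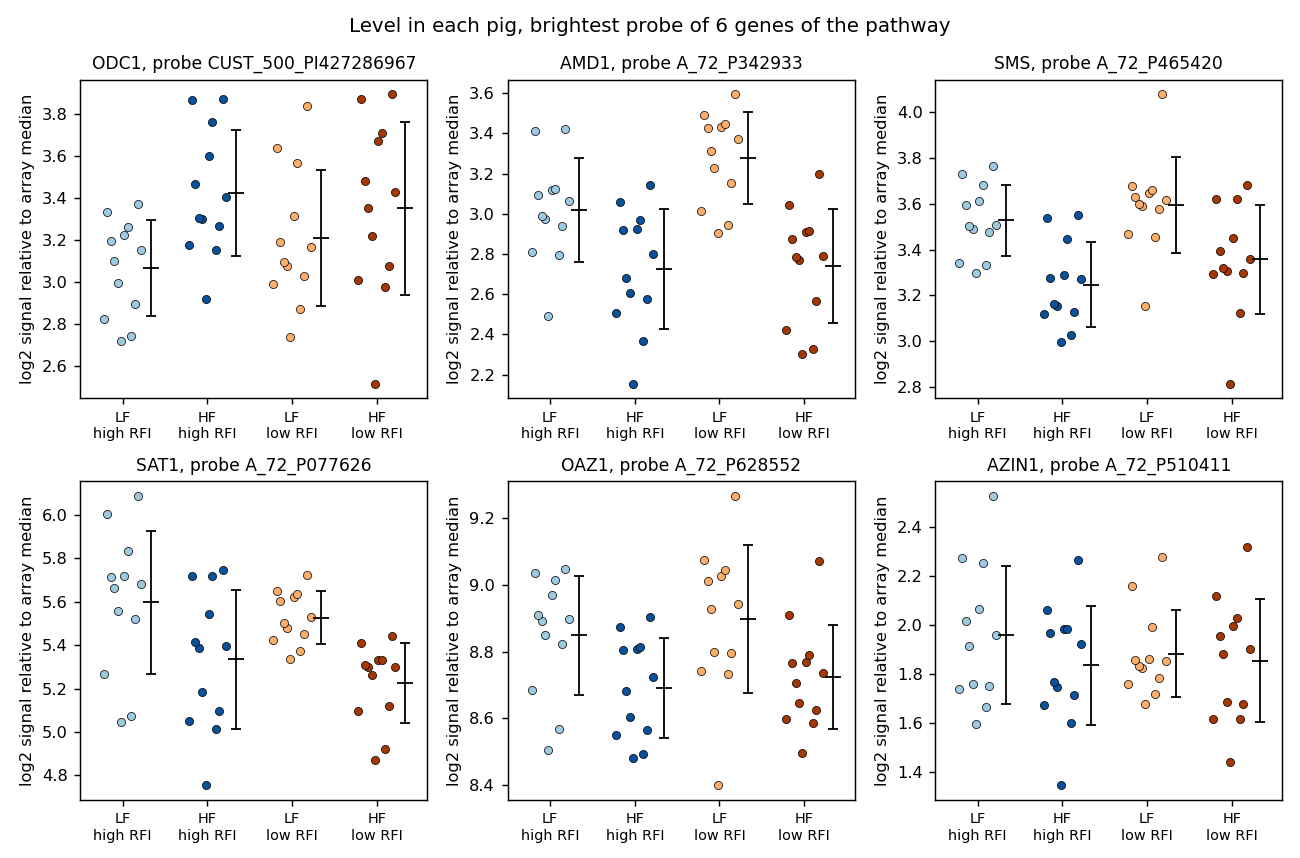
Level of the brightest probe of ODC1, AMD1, SMS, SAT1, OAZ1 and AZIN1 in each of the 48 pigs (y axis, log2 signal relative to the array median, a separate scale for each gene), by diet and line (x axis). Points are pigs, and bars are the mean ± SD of 12 pigs. ODC1 was higher and AMD1, SMS, SAT1 and OAZ1 were lower in HF than in LF pigs, and the AZIN1 probe shown was not called.

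Among the antizymes, *OAZ1* was slightly lower under the HF diet. All 6 of its probes lay between -0.14 and -0.16, and 2 of them were called. With slide as a random block A_72_P690027 was called as well (limma adjusted p = 0.0455). On the brightest, A_72_P628552, the LF pigs had a mean of 8.87 ± 0.20 (SD, n = 24) and the HF pigs one of 8.71 ± 0.15 (SD, n = 24), with 20 of 24 LF pigs above the HF mean (limma adjusted p = 0.0294). Neither *OAZ1* call held when arrays were scaled to their 75th percentile, where this probe was at -0.12 (limma adjusted p = 0.0963). Both were also lost with array position as a block and on the second scan date alone. *OAZ2* had 3 probes between -0.05 and 0.01, none called, and the interval of the brightest ran from -0.10 to 0.12. Differences between the antizyme genes in their response to diet were not tested.

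*AZIN1*, which releases ODC1 from antizyme, was lower under the HF diet on 2 of 7 probes, A_72_P547806 at -0.17 and A_72_P643581 at -0.19 (limma adjusted p of 0.0437 and 0.0376). The other 5 lay between -0.08 and -0.17 and were not called, although A_72_P618526 was with slide as a random block (limma adjusted p = 0.0278). Neither call held under scaling to the 75th percentile, where the largest difference over the 7 probes was -0.14. On either scan date alone 0 of the 7 were called. The *AZIN1* probes did not read 1 quantity. Over the 48 arrays, A_72_P510411, its repeat O8815 and A_72_P316068 moved together, with r between 0.85 and 0.89 as a description. Against A_72_P030756 the same 3 had r between -0.30 and -0.56. A statement on *AZIN1* as a gene therefore depends on the probe, and which transcripts they read was not tested.

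In the line contrast 1 of the 38 probes of the members other than *OAZ3* was called, with 1.37% of all probes tested called, and their median low minus high RFI difference was 0.02. The probe called was the dim *SMS* probe A_72_P704396, at 0.62 ± 0.15 (SE) higher in low RFI (limma adjusted p = 0.0322). It was well above background on 12 of 12 HF low RFI, 8 of 12 HF high RFI, 11 of 12 LF low RFI and 12 of 12 LF high RFI arrays. The fit left out 1 LF high RFI array, on which the spot was flagged as an outlier, and with that spot kept the difference was 0.37 (limma adjusted p = 0.751). The 3 bright *SMS* probes differed between lines by 0.05 to 0.10, none called. The *AMD1* probe A_72_P248097, at 0.21 ± 0.10 (SE), had the only other unadjusted p below 0.05 and was not called (limma adjusted p = 0.391).

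No member responded to diet in a way that differed detectably between lines. None of the 41 probes was called for the interaction, 0% of all probes tested were, and 0 of the 41 had an unadjusted p below 0.05 in limma. Within the low RFI line alone 4 probes were called, all of *AMD1*, with 3.04% of all probes called. Within the high RFI line 1 was called, *SMS* A_72_P465420 at -0.28, with 1.66% of all probes called. Calls in 1 line and not in the other are no evidence of a difference, since the interaction was the test of it.

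The genes around the polyamine cycle were read in the same way. Of 38 further genes, 31 had a probe that passed the filter, 71 probes in all. Under the HF diet 5 of these 71 were called lower and 0 higher, with 7.44% of all probes tested called lower and 5.61% higher. The share called lower was thus near that of all probes. The median difference of the 71 probes was -0.04, and that of all probes -0.02. *MAT2A*, which makes S-adenosylmethionine, fell on A_72_P081006 by 0.25, and *AHCY*, which removes the by-product of methylation, fell by 0.25 and 0.28 on 2 of its 3 probes. *SLC7A2*, an importer of arginine and ornithine, fell on A_72_P077491 by 0.39, and its other probe was at -0.38 (limma adjusted p = 0.0821). *DOHH*, which completes the hypusine residue that spermidine supplies to *EIF5A*, fell by 0.20. The 3 of these 5 probes from the methionine cycle were among 21 probes of that list, while of 22 probes for ornithine and arginine supply 1 was called. Whether these lists differed was not tested. All 11 probes of *OAT*, which makes and uses ornithine, lay between -0.04 and 0.02, and the 4 probes of *MYC*, a known driver of *ODC1* transcription, between -0.04 and 0.00. None of the 71 was called by line, a count near the share of 1.37% over all probes tested.

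Of the cell type markers read through their brightest probe, none was called by line in any of 7 lists. Over all probes tested 1.37% were, so a count of 0 says little here. The markers that passed the filter were 7 adipocyte, 7 macrophage, 6 skeletal muscle, 2 blood, 4 germ cell, 4 endothelial and 4 fibroblast genes. Diet called 2 of them, which did not exceed the 7.44% called lower and 5.61% called higher over all probes tested. *LEP*, the adipocyte hormone leptin, was lower under the HF diet by 0.67, and *PDGFRA*, a marker of fibroblast-like cells, was higher by 0.31. The summed signal of the 7 adipocyte markers ranged from 2112 to 2992 times the median probe in HF pigs and from 2099 to 3048 in LF pigs, and that of the 4 fibroblast markers from 974.9 to 1750 and from 775 to 2124. The part of cell makeup in the diet results was not tested.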

How the data were processed

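SCAT RNA of 48 pigs was labelled with Cy3 by the authors and hybridized to 1-colour Agilent porcine arrays, read with Feature Extraction 10.7.3.1. Intensity values in the deposited scanner output are linear, and the processed signal taken here had been background-subtracted by that software. Per the labels, R 2.10.0 was among the tools used by the authors. A second deposited file holds log2 values of 38987 probes, which equalled log2 median intensity minus the array median within 4.87e-09, and it served as an alternative.

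Here, spots flagged as feature outliers (227) were set to missing, probes well above background on at least 9 of 12 arrays of a group were kept (44356), and log2 processed signals were centred on each array's median. Between 62.2% and 81.9% of probes were well above background on an array, 0 spots were saturated, and no 2 arrays held equal values (r between 0.962 and 0.991). The number of arrays limits the precision. Group means were fitted over all 48 arrays in limma 3.58.1 (R 4.3.3, trend) and adjusted by Benjamini-Hochberg over all kept probes. Symbols came from accessions, gene numbers or gene names matched to the RefSeq table of Sscrofa11.1. The members, the lists of related genes and the markers were chosen with earlier results of these data known. Named genes were every member probe, called genes of the related list, the 5 symbols most and least like *OAZ3*, and the 2 nearest genes on either side. *OAT*, *MYC*, *EIF5A* and *S100A10* were named after their values were seen, and markers as examples of their lists. Correlations used 100000 resamples. The fit was tested on simulated data before use. Scaling, background, filter, flags, slide, scan date, position, replicate number, array weights and the methods' analysis of variance were tried as alternatives, 18 in all. The authors' comparisons were not used. Genome, protein and promoter sequences were not used here.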

Additional observations from a re-analysis of the deposited data

How the results depend on the processing

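The count of 18 member probes called by diet stayed between 14 and 23 under the alternatives that kept all or nearly all arrays, and was 10 on the first scan date alone and 4 on the second, where fewer arrays were fitted. The diet calls over all probes moved too. They were 5790 in the main fit, 4285 with array position as a block and 7811 with array weights. On the first and second scan date alone they were 2407 and 1230. Under scaling to the 75th percentile 14 were called, 12 of them lower. That scaling turned the split over all probes called by diet from 57.0% to 32.8% lower, and quantile normalization to 49.5%. No called probe changed sign under any alternative. The 1 line call went to 0 with background outlier flags set to missing, with array position as a block, on the first and on the second scan date alone, and with feature outlier flags kept, an alternative chosen after seeing the data. Line calls over all probes went from 606 to 527, 262, 425, 1 and 605 under these alternatives, in the same order.

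The 4 calls within low RFI became 7 with slide as a random block, 0 with array position as a block, 0 on either scan date alone, 7 with the replicate block and 8 with array weights. The 1 call within high RFI became 0 with 75th percentile scaling, quantile normalization, normexp background, no filter, array position, the second scan date and, chosen after seeing the data, without the 2 arrays with the fewest probes above background. It became 5 with slide as a random block, 3 with scan date as a block, 3 with the replicate block and 6 with array weights. The 5 diet calls among related genes became 3 under quantile normalization, 2 on the first scan date and 0 on the second, and the 0 line calls became 1 with background flags, 2 on the first scan date, 1 with the replicate block and 2 with array weights. Line calls over all probes were 527, 425, 1140 and 1796 under the alternatives named for line, in that order, against 606 in the main fit. *OAZ3* was picked on its line difference in these arrays, so the stability of that difference adds no independent support. The difference kept its sign on all 3 probes under each alternative. For O3277 it lay between -0.82 on the second scan date and -1.90 with background flags set to missing, and for A_72_P619999 between -0.53 on the second and -1.23 on the first scan date. The cause of these shifts was not tested.

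Replicate numbers were shared across groups, and each number lay on 1 slide. Of the 72 same-numbered pairs 48 had deviations correlated above 0.1. The mean r was 0.16 for the same number and -0.01 for other numbers, and 17 of 48 arrays correlated best with their own number. Arrays of 1 number thus had some variation in common, and each number also carries its slide. The numbers were not taken as pairing in the main fit, which had no slide term either. Both were tried as alternatives. With the replicate block 22 member probes were called by diet, among them *OAZ1* A_72_P690027, *SAT1* A_72_P565577 and O8826, and *AZIN1* A_72_P618526. The calls over all probes rose as well, from 5790 to 7124.

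Some probes gave no value under an alternative. The *OAZ1* probe A_72_P059181 could not be fitted with background outlier flags set to missing, the deposited log2 values held 40 of the 41 member probes, and the *SMS* probe O9162 did not pass when every array of a group had to be well above background.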

Other observations

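A probe with no gene name, A_72_P008606, followed *OAZ3* closer than any named gene and was chosen here after its values were seen. Its r with O3277 was 0.96 over 48 arrays after group means were removed, 0.56 within the 19 pigs of the lower run and 0.84 within the 29 of the upper run. Its level was at most -1.60 in the lower and at least -1.13 in the upper pigs, so the split of the 48 pigs was the same. It shares no run of 16 bases with an *OAZ3* probe.

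*S100A10*, a gene of the S100 family on the same chromosome as *OAZ3* in the Sscrofa11.1 annotation, was also chosen after its values were seen. Of its 6 kept probes, A_72_P033421 and A_72_P293354 had r of 0.72 and 0.72 with O3277, and the other 4 lay between -0.00298 and 0.29. Within the upper run the first 2 had r of 0.52 and 0.54, and within the lower run -0.03 and -0.02. Neither was called by line, at -0.31 and -0.28 (limma adjusted p of 0.213 and 0.170).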
